A study of Homo sapiens with 12 samples.

Results

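Clade B serpins are protease inhibitors that act mainly inside the cell, and their transcripts were followed in the breast cancer cell line MDA-MB-468. Rows of a gene count table were matched by Ensembl identifier to 10 symbols, SERPINB1, SERPINB2, SERPINB3, SERPINB4, SERPINB5, SERPINB6, SERPINB7, SERPINB8, SERPINB9 and SERPINB13. All 10 were found among the 57783 genes of the table, and all 10 passed the filter on low counts. They fall into 2 gene clusters, 7 genes on the long arm of chromosome 18 (18q) and 3 on the short arm of chromosome 6 (6p). These symbols were chosen from measured values of the same libraries, with the differences between EPZ5676 and DMSO known. For the members, that comparison is therefore given as a description without a test.

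MDA-MB-468 is an established line of triple-negative breast cancer, a tumour type without estrogen receptor, progesterone receptor or HER2 amplification. Cells were kept for 10 days in 0.5 µM EPZ5676 (pinometostat), which inhibits DOT1L, the enzyme that methylates lysine 79 of histone H3, or in the solvent DMSO. They were then sorted into ALDH1+ and ALDH1- cells, where ALDH1 stands for aldehyde dehydrogenase activity, a mark by which stem-like cells of breast tumours are enriched. The 4 groups were EPZ5676 ALDH1+, DMSO ALDH1+, EPZ5676 ALDH1- and DMSO ALDH1-, each with 3 libraries that the labels call biological replicates. All groups come from this 1 line.

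A serpin presents a flexible loop as bait; the protease that cuts it is trapped in a dead complex. Clade B members lack the classical secretion signal, and many are made in stratified epithelia and in leukocytes, where they restrain proteases released within or near the cell. The mark that DOT1L sets lies along the bodies of transcribed genes.

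The libraries held 24348594 to 80195050 counts, and 3 counts corresponded to 0.0376 to 0.122 CPM, the count divided by the scaled library size and multiplied by 1000000. Every pair of replicates differed by more than counting error (chi-square per degree of freedom from 3.74 to 30.4). The epithelial marker EGFR lay between 4597.5 and 11457.4 CPM and EPCAM between 519.7 and 780.6 CPM, while the progesterone receptor PGR had 1 count in all 12 libraries together. Transcripts of the other 2 receptors were present, with the estrogen receptor ESR1 at 6.83 to 10.85 CPM and the HER2 gene ERBB2 at 33.98 to 66.41 CPM. Of 8 leukocyte markers, LYZ, CD68, CD3E and NKG7 had 3, 1, 2 and 0 counts in all libraries together. PTPRC, CD14 and CSF1R passed the filter. In bulk RNA, fewer cells of a type and less RNA per cell cannot be told apart.

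The promoters are shown first, because most 18q members share a short motif there that the close copies SERPINB3 and SERPINB4 do not hold. Windows of 250 bases before to 50 after each start were taken from RefSeq (GRCh38.p14), which gave 15 windows for the 10 members. The AP-1 motif TGANTCA, which reads the same on both strands, was found in at least 1 window of 5 of the 7 18q members and in no window of SERPINB3, SERPINB4 or the 3 6p members. Over all 35116 windows, 7.71% held it. This share is per window, while the members are counted per gene, and a gene with several windows has more chances of a match. The stretches below, on the plus strand of GRCh38.p14, hold the match nearest to the start for each of the 5 genes, with the motif in capitals.
SERPINB2, chr18:63887586-63887626, match 102 bases before the start: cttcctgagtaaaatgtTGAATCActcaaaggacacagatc
SERPINB7, chr18:63775362-63775402, match 39 bases before the start: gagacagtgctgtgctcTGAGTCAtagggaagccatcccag
SERPINB5, chr18:63476795-63476835, match 146 bases before the start: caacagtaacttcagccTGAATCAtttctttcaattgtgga
SERPINB13, chr18:63587239-63587279, match 87 bases before the start: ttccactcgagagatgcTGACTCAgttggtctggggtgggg
SERPINB8, chr18:63970036-63970076, match 28 bases before the start: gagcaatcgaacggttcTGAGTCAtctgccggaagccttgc
SERPINB7 has 3 windows, and 2 of them hold 2 matches each. SERPINB8 holds another match 185 bases before its start. The STAT motif TTCNNNGAA, present in 7.66% of all windows, was found in SERPINB1, SERPINB7 and SERPINB8. The kappa B motif, searched on both strands and present in 1.91% of all windows, was found in 1 window of SERPINB7. No match overlapped another. These matches describe letters in the windows, and binding was not measured.

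SERPINB3 and SERPINB4 are neighbours with nearly the same promoter, shown because the values of these copies differ below. The 250 bases before each start are printed 5′ to 3′ on the minus strand of GRCh38.p14, with the bases that differ in capitals.
SERPINB3, chr18:63661894-63662143: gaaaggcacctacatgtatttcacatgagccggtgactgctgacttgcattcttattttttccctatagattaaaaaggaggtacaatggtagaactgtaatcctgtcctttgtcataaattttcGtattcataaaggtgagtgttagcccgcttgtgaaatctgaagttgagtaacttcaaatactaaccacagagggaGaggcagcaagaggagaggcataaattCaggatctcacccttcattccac
SERPINB4, chr18:63644257-63644506: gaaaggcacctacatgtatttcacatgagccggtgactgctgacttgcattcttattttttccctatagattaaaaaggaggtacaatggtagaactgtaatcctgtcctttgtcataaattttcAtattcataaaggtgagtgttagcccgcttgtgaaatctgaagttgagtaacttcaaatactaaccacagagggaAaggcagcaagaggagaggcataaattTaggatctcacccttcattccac
Over the whole windows of 300 bases the identity was 98.7%. The 4 differences, counted from the first base with the SERPINB3 base first, are G126A, G201A, C228T and T260C. Whether reads can be told apart depends on the exons. In those of the GENCODE 29 annotation, 23.3% of the 50-base windows of SERPINB3 also occur in SERPINB4, and 3.21% of its 100-base windows do. How the authors' counting treated reads that fit both genes is not given in the sources used here, so single counts of SERPINB3 and SERPINB4 are uncertain.

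EPZ5676 libraries held more transcript of most 18q members. SERPINB2, known as plasminogen activator inhibitor 2, blocks the urokinase that activates plasminogen. It had 362.9, 387.6 and 116.7 CPM in EPZ5676 ALDH1+ replicates 1, 2 and 3, against 13.1, 36.1 and 15.5 CPM in DMSO ALDH1+. Its ALDH1- libraries had 188.6, 184.7 and 90.5 CPM in EPZ5676 and 8.47, 15.7 and 11.4 CPM in DMSO. The groups did not overlap, and replicate 3 was the lowest EPZ5676 library in both populations. The log2 fold change of EPZ5676 over DMSO was 3.77 (SE 0.47) in ALDH1+ and 3.70 (SE 0.48) in ALDH1-. Part of the SERPINB2 sequence lies in SERPINB10, a clade B gene that overlaps it on the same strand, with 19.1% of 50-base windows shared. SERPINB10 had 3 to 40 counts in each EPZ5676 library and 0 to 10 in each DMSO library.

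SERPINB7, or megsin, is an inhibitor of the outer epidermis whose loss causes a palmoplantar keratosis in humans. It had 485.7, 519.5 and 365.2 CPM in EPZ5676 ALDH1+ and 147.2, 231.2 and 139.6 CPM in DMSO ALDH1+. In ALDH1- cells the values were 414.7, 406.2 and 361.9 CPM in EPZ5676 and 146.4, 199.6 and 148 CPM in DMSO. Every EPZ5676 library lay above every DMSO library, with log2 fold changes of 1.41 (SE 0.18) in ALDH1+ and 1.26 (SE 0.18) in ALDH1-.

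SERPINB5, or maspin, inhibits no known protease and is described as a tumour suppressor of the mammary epithelium. It had 171.4, 163.6 and 164.4 CPM in EPZ5676 ALDH1+ and 78.3, 96.2 and 76.2 CPM in DMSO ALDH1+. The ALDH1- libraries had 138.4, 126.9 and 141.1 CPM in EPZ5676 and 67.9, 81.8 and 73.4 CPM in DMSO. The log2 fold changes were 1.00 (SE 0.09) and 0.87 (SE 0.09), without overlap in either population.

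SERPINB13, also called headpin or hurpin, inhibits cathepsin L and is made in squamous epithelia. It was at low counts, with 1.03, 1.78 and 1.31 CPM in EPZ5676 ALDH1+ and 0.291, 0.797 and 0.513 CPM in DMSO ALDH1+. Among ALDH1- libraries, those of EPZ5676 had 0.938, 1.09 and 1.23 CPM and those of DMSO 0.0733, 0.612 and 0.576 CPM. DMSO ALDH1- replicate 1 rests on 2 counts, where 3 counts would be 0.11 CPM. The groups did not overlap, and the log2 fold changes were 1.44 (SE 0.39) in ALDH1+ and 1.35 (SE 0.46) in ALDH1-. Across alternative settings the ALDH1- value ran from 0.87 to 1.75.

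SERPINB8 inhibits furin, a convertase of the secretory pathway. It had 51.9, 43.2 and 36.8 CPM in EPZ5676 ALDH1+ and 32.7, 37.1 and 28.9 CPM in DMSO ALDH1+, so that EPZ5676 replicate 3 lay within the DMSO range. In ALDH1- cells, 50.1, 43.3 and 39.8 CPM in EPZ5676 lay above 37.2, 33.0 and 29.8 CPM in DMSO. The log2 fold changes were 0.42 (SE 0.13) and 0.41 (SE 0.13). HMSD, a gene within the cluster that overlaps SERPINB8 on the same strand, had 82 counts in the 6 EPZ5676 libraries together and 7 in the 6 DMSO libraries.

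The close copies SERPINB3 and SERPINB4 differed. SERPINB4, which inhibits cathepsin G and chymase, had 2.78, 4.81 and 3.74 CPM in EPZ5676 ALDH1+ and 1.64, 3.19 and 2.73 CPM in DMSO ALDH1+, which overlap. In ALDH1- cells it had 3.47, 3.79 and 3.96 CPM in EPZ5676 and 1.58, 3.33 and 1.34 CPM in DMSO, which do not. Its log2 fold changes were 0.61 (SE 0.29) and 0.83 (SE 0.31), and with the replicate number as a block 0.57 (SE 0.19) and 0.86 (SE 0.21). Without DMSO ALDH1- replicate 2, the highest library of that group, the value in ALDH1- was 1.36. In ALDH1+ it was 0.37 without EPZ5676 replicate 2 and 0.40 without DMSO replicate 1.

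SERPINB3, an inhibitor of cysteine cathepsins known as a squamous cell carcinoma antigen, had 5.64, 7.46 and 7.04 CPM in EPZ5676 ALDH1+ and 4.37, 11.3 and 7.38 CPM in DMSO ALDH1+. SERPINB3 in ALDH1- cells had 6.77, 6.77 and 4.99 CPM in EPZ5676 and 5.46, 10.8 and 4.22 CPM in DMSO. The groups overlapped in both populations, and EPZ5676 was higher in 3 of 6 pairs of libraries with the same population and replicate number. The log2 fold changes were -0.18 (SE 0.31) and -0.15 (SE 0.33), and they changed sign without DMSO replicate 2 of the population, with ranges over the alternative fits of -0.45 to 0.17 in ALDH1+ and -0.39 to 0.36 in ALDH1-.

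**Figure D1:**
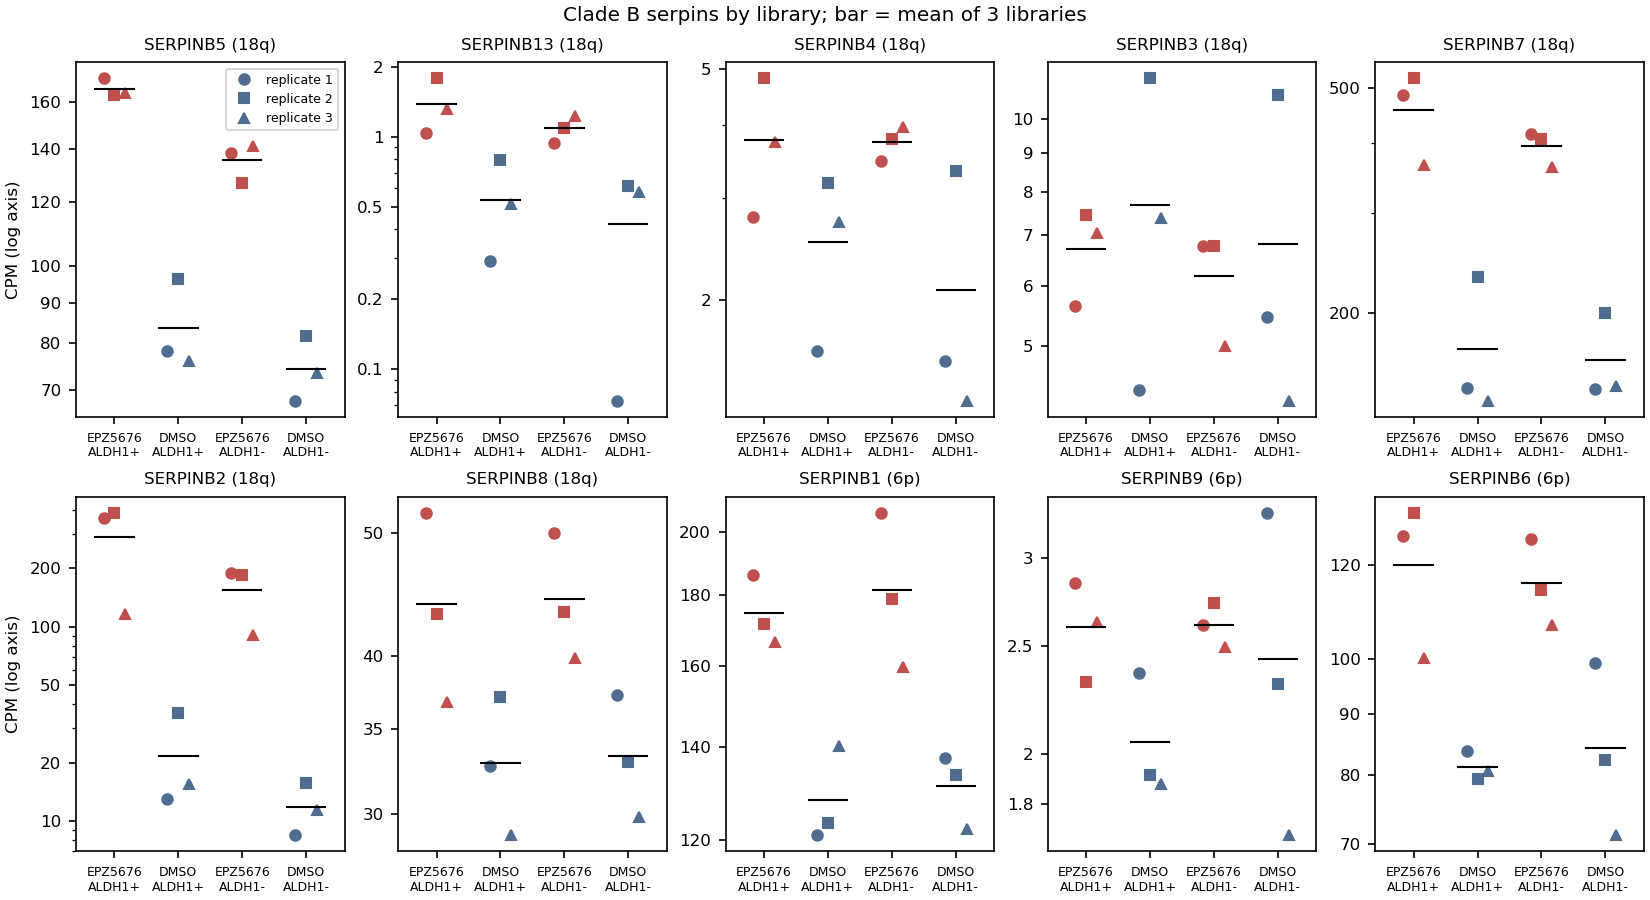
CPM of each of the 10 members in each of 12 libraries, on logarithmic axes with a range of its own per panel; red marks EPZ5676 and blue DMSO, symbols mark replicates 1 to 3, and bars are means of 3 libraries. SERPINB2, SERPINB7, SERPINB5, SERPINB13, SERPINB1 and SERPINB6 are above DMSO in every EPZ5676 library of both populations, while SERPINB3 and SERPINB9 overlap.

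As a share of the summed counts of SERPINB3 and SERPINB4, SERPINB3 was lower in EPZ5676. Its share was 66.9%, 60.8% and 65.3% in EPZ5676 ALDH1+ and 72.7%, 78.0% and 73.0% in DMSO ALDH1+. In ALDH1- libraries the share was 66.1%, 64.1% and 55.8% in EPZ5676 and 77.6%, 76.3% and 75.9% in DMSO. Every EPZ5676 library lay below every DMSO library. The sums behind these shares ran from 226 to 979 counts in EPZ5676 and from 145 to 571 in DMSO. Exact 95% intervals, which cover counting error only, still overlap between many libraries, for example 60.6 to 72.9% in EPZ5676 ALDH1+ replicate 1 and 65.3 to 79.4% in DMSO ALDH1+ replicate 1.

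**Figure D2:**
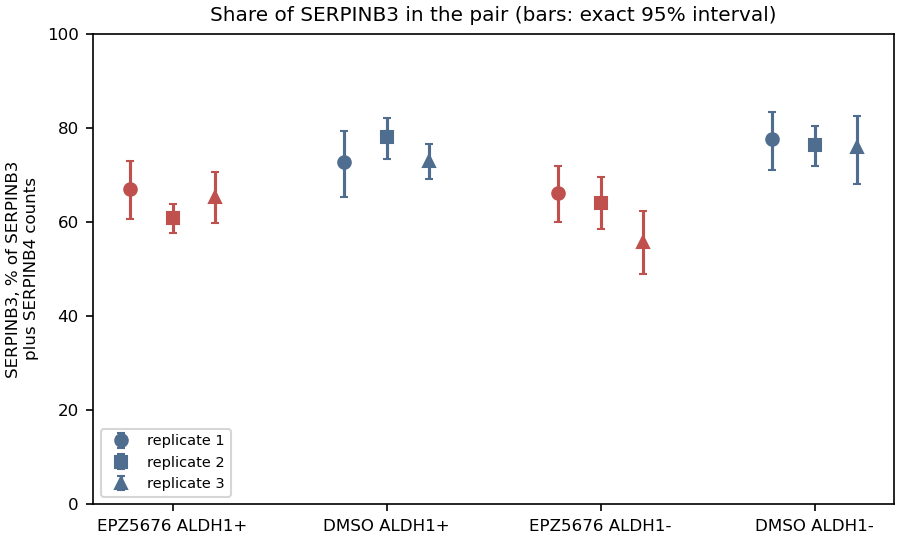
SERPINB3 as a percentage of SERPINB3 plus SERPINB4 counts in each library, with exact 95% binomial intervals; red marks EPZ5676 and blue DMSO, and symbols mark replicates. The 6 EPZ5676 libraries sit between 55.8% and 66.9% and the 6 DMSO libraries between 72.7% and 78.0%.

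On 6p, SERPINB1, an inhibitor of neutrophil elastase and related proteases, had 186.2, 171.6 and 166.5 CPM in EPZ5676 ALDH1+ and 121, 123.5 and 140.3 CPM in DMSO ALDH1+. In ALDH1- cells it had 206.4, 178.9 and 159.8 CPM in EPZ5676 and 137.5, 133.7 and 122.2 CPM in DMSO. The log2 fold changes were 0.44 (SE 0.09) and 0.47 (SE 0.09), without overlap.

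SERPINB6, which inhibits cathepsin G and trypsin-like proteases and is needed in the inner ear, had 127, 132.8 and 100.2 CPM in EPZ5676 ALDH1+ and 83.8, 79.4 and 80.6 CPM in DMSO ALDH1+. SERPINB6 in ALDH1- cells had 126.2, 114.4 and 106.9 CPM in EPZ5676 and 99.3, 82.3 and 71.2 CPM in DMSO. The log2 fold changes were 0.56 (SE 0.12) and 0.46 (SE 0.12), again without overlap.

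SERPINB9, the inhibitor of granzyme B that shields cells from cytotoxic lymphocytes, was low. It had 2.85, 2.32 and 2.63 CPM in EPZ5676 ALDH1+ and 2.37, 1.91 and 1.88 CPM in DMSO ALDH1+. In ALDH1- cells it had 2.61, 2.74 and 2.50 CPM in EPZ5676 and 3.30, 2.31 and 1.69 CPM in DMSO. The groups overlapped in both populations, and the log2 fold changes were 0.34 (SE 0.20) and 0.10 (SE 0.21). The value in ALDH1- was -0.09 without DMSO replicate 3 and 0.38 without DMSO replicate 1.

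The clusters are set beside each other here. In ALDH1+ cells, all 3 EPZ5676 libraries lay above all 3 DMSO libraries for 4 of 7 18q members and 2 of 3 6p members. Over all 16327 genes tested this was so for 22%, and the reverse for 19.3%. In ALDH1- cells it was so for 6 of 7 18q members and 2 of 3 6p members, beside 19.7% of all genes, and the reverse for 19.4%. For 0 of 10 members did all EPZ5676 libraries lie below all DMSO libraries. The members were chosen on this comparison, so nothing is read from their counts against these percentages. By population and replicate number the libraries form 6 pairs of EPZ5676 and DMSO. EPZ5676 was higher in 6 of 6 for every member, SERPINB4 and SERPINB8 included, except SERPINB9 (5 of 6) and SERPINB3 (3 of 6). The share of all genes with such pairs was not counted, so nothing is read from these pair counts. The median log2 fold change was 1.00 for 18q members, 0.44 for 6p members and -0.01 for all genes tested in ALDH1+. It was 0.87, 0.46 and -0.02 in ALDH1-. The members' values overlap between the clusters: the log2 fold changes of SERPINB3 and SERPINB8 on 18q were lower than those of SERPINB1 and SERPINB6 on 6p in both populations, and SERPINB3 was the only member below 0.

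The summed CPM of the 7 18q members was 1081.4, 1127.9 and 695.2 in EPZ5676 ALDH1+ and 277.6, 415.9 and 270.8 in DMSO ALDH1+. In ALDH1- libraries the sum was 802.9, 772.7 and 643.5 in EPZ5676 and 267.1, 344.8 and 268.8 in DMSO. SERPINB2 made up 14.1 to 34.4% of this sum in EPZ5676 libraries and 3.17 to 8.68% in DMSO libraries. Without SERPINB2 the sums were 553 to 740.3 CPM in EPZ5676 and 255.3 to 379.8 CPM in DMSO, still without overlap. Most of these sums was SERPINB7, at 361.9 to 519.5 CPM in EPZ5676 and 139.6 to 231.2 CPM in DMSO. SERPINB5 came next, at 126.9 to 171.4 and 67.9 to 96.2 CPM. The summed CPM of the 3 6p members was 269.2 to 335.2 in EPZ5676 and 195 to 240.2 in DMSO.

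Levels of different genes were compared per kilobase, using the median length of the coding transcripts of each gene that are linked to RefSeq. The order depends on this length, which for SERPINB6 was 1.585 kb, while all its annotated exons together cover 13.2 kb. In plain CPM, the mean of SERPINB6 in DMSO ALDH1+ (81.2) lay below those of SERPINB5 (83.5) and SERPINB1 (128.3). In EPZ5676 ALDH1+, SERPINB7 was the highest at 219 ± 39 CPM per kilobase (SD, n = 3). SERPINB2 followed at 142 ± 74, SERPINB6 at 75.7 ± 11, SERPINB1 at 66.7 ± 3.9 and SERPINB5 at 59.8 ± 1.5 CPM per kilobase. In DMSO ALDH1+, SERPINB7 was again the highest at 82.8 ± 24 CPM per kilobase, then SERPINB6 at 51.2 ± 1.4, SERPINB1 at 49.0 ± 4.0 and SERPINB5 at 30.0 ± 4.0, while SERPINB2 stood in place 6 at 10.6 ± 6.2. The ranges of SERPINB7 and SERPINB2, of SERPINB2 and SERPINB6, of SERPINB6 and SERPINB1, of SERPINB3 and SERPINB4, and of SERPINB9 and SERPINB13 overlapped in EPZ5676 ALDH1+. SERPINB2, at 57.4 to 190.5 CPM per kilobase in that group, also overlapped SERPINB1 and SERPINB5. In DMSO ALDH1+, those of SERPINB6 and SERPINB1 and of SERPINB8 and SERPINB2 overlapped. SERPINB9 and SERPINB13 were the lowest in both groups, at 0.631 ± 0.065 and 0.436 ± 0.12 CPM per kilobase in EPZ5676 ALDH1+ and 0.498 ± 0.066 and 0.169 ± 0.080 in DMSO ALDH1+.

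DMSO replicate 2 stood above the other DMSO libraries of its population for 6 of the 7 18q members in both populations, all but SERPINB8. This was so for 0 of the 3 6p members. How many of all genes show this order was not counted, so nothing is read from these counts. The 3 remaining clade B genes of the 18q cluster were close to the limit of detection. SERPINB12 had 1 to 9 counts in each EPZ5676 library and 1 to 6 in each DMSO library, SERPINB10 is given above, and SERPINB11 had 0 counts in all 12 libraries. The pseudogene SERPINB9P1 had 323 counts over all libraries.

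The genes around the clusters were looked at for differences beyond the serpins. EPZ5676 was compared with DMSO with edgeR's quasi-likelihood test, with Benjamini-Hochberg adjustment over all 16327 genes and a call below 0.05, and changes are given on the log2 scale. In ALDH1+ cells 17.8% of all genes were called higher and 13.7% lower, and in ALDH1- cells 13.6% and 9.04%. With the replicate number as a block these shares were 22.2% and 19.6% in ALDH1+ and 17.4% and 14.8% in ALDH1-, and block counts of lists are to be read beside them. Beyond SERPINB8 on 18q, CDH7, CDH19, DSEL and DOK6 had 0 counts in every library, and CCDC102B did not pass the filter. TMX3 was the only gene tested on that side, so little can be told of it. Of 8 genes tested among the 13 neighbours of the 18q cluster, 2 were called higher in each population and 0 lower. With the block, 3 were higher and 2 lower in ALDH1+, and 3 and 1 in ALDH1-. KDSR, an enzyme of sphingolipid synthesis next but 1 to SERPINB5, rose by 0.22 (SE 0.06, adjusted p = 0.015) in ALDH1+ cells, a call lost without DMSO replicate 3 or EPZ5676 replicate 1 (adjusted p = 0.050 and 0.066). VPS4B, an ATPase of membrane remodelling next to SERPINB5, rose by 0.22 (SE 0.07, adjusted p = 0.038) in ALDH1- cells, a call lost without any 1 of the 6 ALDH1- libraries (adjusted p from 0.071 to 0.11). HMSD, at 9, 25 and 15 counts in EPZ5676 ALDH1+ against 3, 1 and 2 in DMSO ALDH1+, was the other call in both populations. With at most 3 counts in any DMSO library, it passed the filter only through EPZ5676 libraries and could hardly be called lower. Without HMSD, KDSR was the only neighbour called in ALDH1+ and VPS4B the only 1 in ALDH1-. Their changes in the other population were of similar size. KDSR rose by 0.18 (adjusted p = 0.0575 by edgeR) in ALDH1- and VPS4B by 0.20 (adjusted p = 0.051) in ALDH1+. Both of these were called with no scaling factor, with at least 1 CPM in 3 libraries, by DESeq2 and with the block. The calls therefore do not set the populations apart. TNFRSF11A, ZCCHC2, PHLPP1, BCL2 and TMX3 were not called, with log2 fold changes from -0.29 to 0.23. With the block, TNFRSF11A was called lower in both populations (adjusted p = 0.028 in ALDH1+ and 0.029 in ALDH1-) and PHLPP1 in ALDH1+ (adjusted p = 0.030).

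Around the 6p cluster, 6 of 12 neighbours were called higher and 1 lower in ALDH1+ cells, and 5 higher and 0 lower in ALDH1- cells. FOXF2, a forkhead transcription factor of mesenchyme, averaged 5.61 ± 0.47 CPM in EPZ5676 ALDH1+ and 0.936 ± 0.12 CPM in DMSO ALDH1+ (SD, n = 3 each), a difference of 2.57 (SE 0.16, adjusted p = 6.3e-08 by edgeR). TUBB2B, a beta-tubulin, averaged 9.38 ± 1.5 CPM in EPZ5676 ALDH1+ and 1.87 ± 0.31 CPM in DMSO ALDH1+ (2.36, SE 0.18). TUBB2A rose by 0.91 (SE 0.14), FOXQ1 by 0.63 (SE 0.12), FOXC1 by 0.50 (SE 0.11) and the kinase gene MYLK4 by 0.44 (SE 0.12). GMDS, an enzyme of GDP-fucose synthesis, fell by 0.32 (SE 0.09) on the log2 scale. The calls on MYLK4 and GMDS were lost without DMSO ALDH1+ replicate 3 (adjusted p = 0.066 and 0.071), and that on GMDS also without EPZ5676 ALDH1+ replicate 1 (adjusted p = 0.053). In ALDH1- cells FOXF2, TUBB2B, TUBB2A, FOXQ1 and FOXC1 were called again, and with the block GMDS as well (adjusted p = 0.027). TUBB2A and TUBB2B are close copies, and their counts are uncertain for the same reason as those of SERPINB3 and SERPINB4. The genes that directly flank the 6p serpins, WRNIP1 and NQO2, had log2 fold changes of -0.04 and -0.13 in ALDH1+ and -0.04 and -0.12 in ALDH1-, and were not called.

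**Figure D3:**
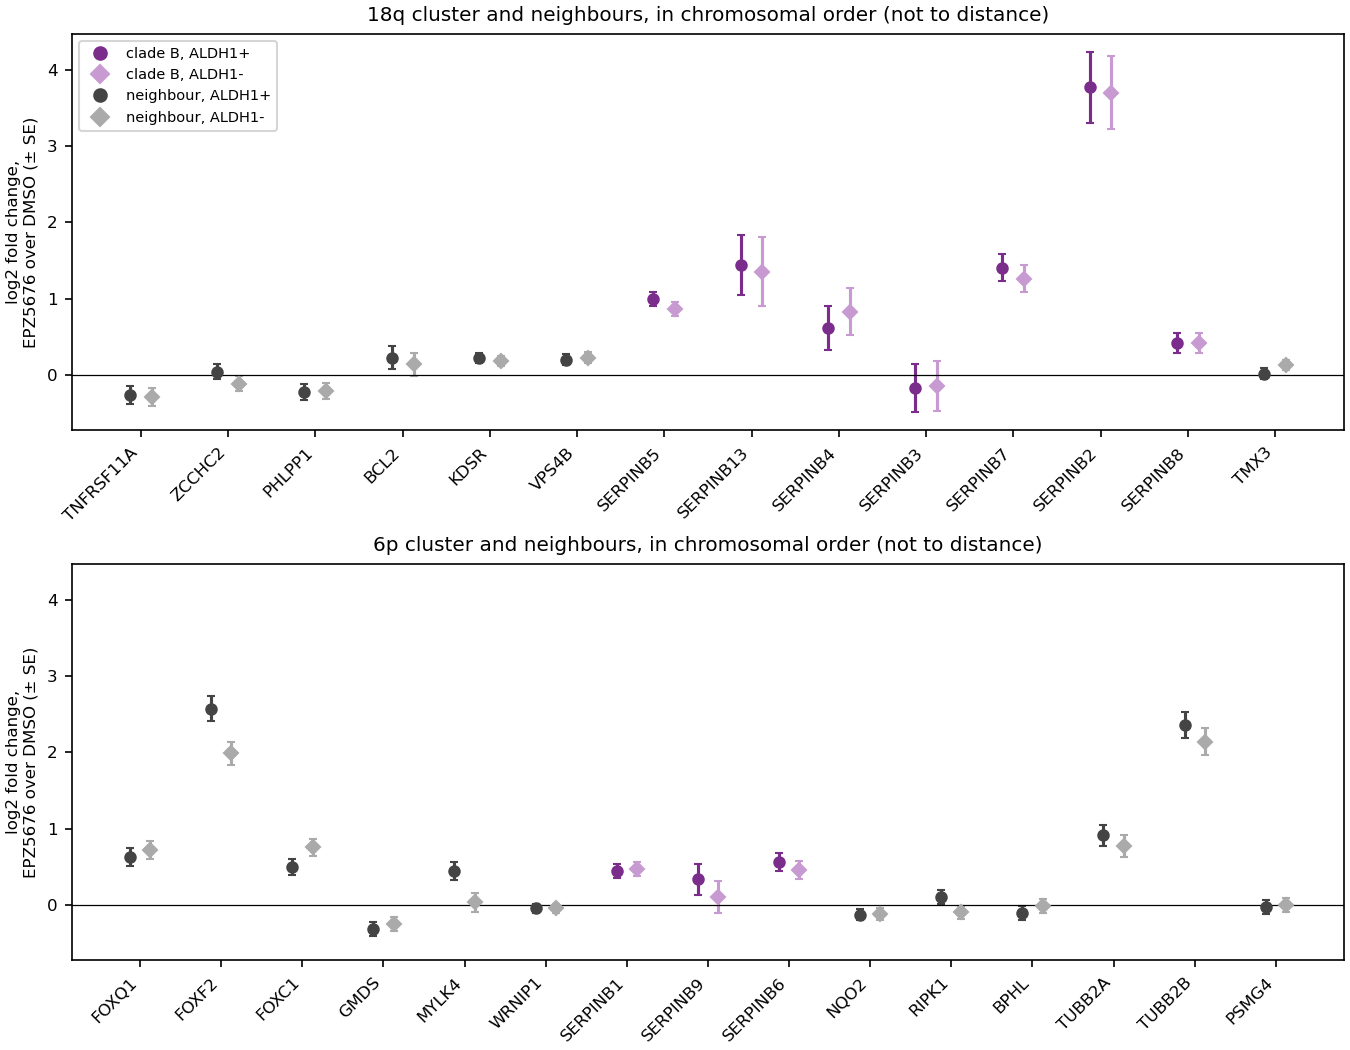
Log2 fold change of EPZ5676 over DMSO, ± SE, for the clade B members and their tested protein-coding neighbours in chromosomal order, with ALDH1+ left of ALDH1- for each gene; HMSD is left out because of its 7 DMSO counts. On 18q the neighbours lie between -0.29 and 0.23 and SERPINB2 at 3.77 and 3.70; on 6p the largest values belong to FOXF2 and TUBB2B.

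Genes of the pathways that these inhibitors act in were described from lists chosen with earlier results of these data known. In the plasminogen activator system, leaving out SERPINB2, 6 of 6 genes tested were called higher in each population. PLAU, the urokinase that SERPINB2 inhibits, averaged 46.7 ± 8.1 CPM in EPZ5676 ALDH1+ and 19.6 ± 2.9 CPM in DMSO ALDH1+ (SD, n = 3 each), a rise of 1.25 (SE 0.13, adjusted p = 4.4e-06 by edgeR). In ALDH1- cells PLAU rose by 1.21 (SE 0.13). Their median log2 fold change was 1.55 in ALDH1+ and 1.32 in ALDH1-, beside -0.01 and -0.02 for all genes tested.

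Of 7 serpins outside clade B that were tested, 5 were called higher and 0 lower in each population. This list shares genes with the plasminogen list, SERPINE2 among them. SERPINE2, or protease nexin, rose by 1.85 (SE 0.15) in ALDH1+ and 1.44 (SE 0.14) in ALDH1-. SERPING1, the inhibitor of complement C1, rose by 1.55 (SE 0.18) and 1.96 (SE 0.20), and the collagen chaperone SERPINH1 by 0.36 (SE 0.07) in both. These 3 genes had an adjusted p of 0.00138 or lower by edgeR.

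Of 12 target proteases tested, 5 were called higher and 3 lower in ALDH1+ cells, and 5 higher and 1 lower in ALDH1- cells. With the replicate number as a block the counts were 7 and 4 in ALDH1+ and 7 and 1 in ALDH1-. PLAU stands in this list as well. FURIN, the target of SERPINB8, rose by 0.98 (SE 0.12) in ALDH1+ and 0.73 (SE 0.12) in ALDH1-. CTSL, a target of SERPINB3 and SERPINB13, rose by 0.61 (SE 0.08) and 0.64 (SE 0.09), and CTSS, cathepsin S, by 0.82 (SE 0.23) and 1.01 (SE 0.24). The call on CTSS in ALDH1+ was lost without DMSO replicate 3, EPZ5676 replicate 1 or EPZ5676 replicate 2 (adjusted p from 0.052 to 0.064). Of 8 other epithelial protease inhibitors tested, 3 were called higher and 1 lower in each population. Cystatin M, CST6, rose by 1.87 (SE 0.19) and 1.97 (SE 0.19), while the elastase inhibitor PI3 (elafin) fell by 1.38 (SE 0.18) and 0.96 (SE 0.19) on the log2 scale.

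Among 20 transcription factors of squamous and stress programmes, 6 were called higher and 5 lower in ALDH1+ cells, and 5 and 4 in ALDH1- cells. With the replicate block the counts were 8 and 9, and 9 and 7. The 5 higher calls in ALDH1- were 2 by DESeq2 and 2 without DMSO replicate 2 or 3 or EPZ5676 replicate 1 or 2. PRDM1, a repressor active in epidermal differentiation, rose by 1.83 (SE 0.53) in ALDH1+ and 1.68 (SE 0.53) in ALDH1-. KLF4, a regulator of barrier formation in the epidermis, rose by 1.09 (SE 0.25) and 0.83 (SE 0.25). GRHL3 and ZNF750, both regulators of late epidermal differentiation, fell by 1.41 (SE 0.30) and 1.14 (SE 0.23) in ALDH1+, and by 1.42 (SE 0.31) and 1.10 (SE 0.24) in ALDH1-. The rise of PRDM1 lost its call without DMSO ALDH1+ replicate 2 or 3 or EPZ5676 ALDH1+ replicate 1 (adjusted p from 0.054 to 0.087). In ALDH1- cells PRDM1 and KLF4 lost it without DMSO replicate 2 or 3 or EPZ5676 replicate 1 or 2, with adjusted p from 0.074 to 0.18 for PRDM1 and from 0.062 to 0.11 for KLF4.

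Subunits of AP-1 were looked up after the promoter motifs and their values had been seen. FOSL1 averaged 209.3 ± 57 CPM in EPZ5676 ALDH1+ and 100.7 ± 31 CPM in DMSO ALDH1+ (SD, n = 3 each), a rise of 1.06 (SE 0.25, adjusted p = 0.0047 by edgeR), and it rose by 0.79 (SE 0.25, adjusted p = 0.033) in ALDH1-. The call in ALDH1- was lost without DMSO replicate 2 or 3 or EPZ5676 replicate 1 or 2 (adjusted p from 0.091 to 0.14). FOSL2 rose by 0.53 (SE 0.08) and 0.39 (SE 0.08). JUND fell by 0.44 (SE 0.09) in ALDH1+ and was not called in ALDH1-. JUN, JUNB, FOS and FOSB were not called in either population. With the block, FOS had a log2 fold change of -0.93 in ALDH1+ and -0.74 in ALDH1- (adjusted p = 2.9e-07 and 5.6e-06 by edgeR), FOSB of -0.73 and -0.83, and JUN of -0.45 and -0.30, and all 3 were called lower in both populations. The block also called JUND lower in ALDH1- (-0.25, adjusted p = 0.012 by edgeR) and JUNB lower in ALDH1+ (-0.19, adjusted p = 0.041). Some fits without 1 library made these 2 calls as well, at an adjusted p from 0.021 to 0.047.

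Markers of other cell types moved with the treatment at low levels. Epithelial markers moved as well, with 1 of 6 called higher and 4 lower in ALDH1+, and 0 and 1 in ALDH1-. EGFR rose by 0.63 (SE 0.16) in ALDH1+ and was not called in ALDH1-. CDH1 fell by 0.55 (SE 0.09) in ALDH1+ and 0.67 (SE 0.09) in ALDH1-, and ERBB2 by 0.63 (SE 0.08) and 0.79 (SE 0.08). The summed CPM of 8 leukocyte markers was 9.24 to 12.3 in EPZ5676 ALDH1+ and 7.13 to 8.52 in DMSO ALDH1+, and 11.3 to 16.7 in EPZ5676 ALDH1- and 8.75 to 11.3 in DMSO ALDH1-, which overlap. Most of this sum was CSF1R, which rose by 0.75 (SE 0.18) in ALDH1+ and 0.67 (SE 0.18) in ALDH1-, while CD14 fell by 1.21 (SE 0.27, adjusted p = 0.0031 by edgeR) in ALDH1+ and was not called in ALDH1-. PTPRC, at no more than 0.912 CPM in any library, was called higher in both populations (1.53, SE 0.46, and 2.06, SE 0.47). The summed CPM of 6 fibroblast and smooth muscle markers was 21.5 to 25.3 in EPZ5676 ALDH1+ and 8.90 to 14.2 in DMSO ALDH1+, and 18.6 to 20.8 in EPZ5676 ALDH1- and 10.6 to 13.5 in DMSO ALDH1-. It is nearly all COL1A1 (8.76 to 24.6 CPM), and each of the other 5 markers had at most 0.438 CPM in any library. That of 3 endothelial markers was 4.50 to 4.99 in EPZ5676 ALDH1+ and 1.78 to 2.31 in DMSO ALDH1+, and 4.64 to 5.86 in EPZ5676 ALDH1- and 2.38 to 2.79 in DMSO ALDH1-. Most of that sum was KDR (1.56 to 5.40 CPM). The fibroblast marker DCN had 0 counts, and LYZ, CD68, CD3E and NKG7 were at the counts given above. Their part in the serpin differences was not tested.

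The sorted populations were compared within each treatment. The members were chosen with earlier results of these libraries known, so these tests are not independent of that choice. SERPINB2 and SERPINB5 were higher in the ALDH1+ than in the ALDH1- library in 6 of 6 pairs with the same treatment and replicate number, and SERPINB7 and SERPINB13 in 5 of 6. The share of all genes with 6 of 6 such pairs was not counted, so nothing is read from these pair counts. By edgeR, 0 of 10 members were called in EPZ5676, where 2 had an unadjusted p below 0.05, and 0 in DMSO, where 0 did. DESeq2 and limma-voom called 0 in both treatments. Few genes were called at all, 0.0184% of all genes higher and 0% lower in EPZ5676 and 0% in either direction in DMSO. An unadjusted p below 0.05 was found for 6.32% of all genes in EPZ5676 and 17.8% in DMSO. DESeq2 called 16 higher and 15 lower in EPZ5676 and 146 and 152 in DMSO. In EPZ5676, SERPINB2 had a log2 fold change of ALDH1+ over ALDH1- of 0.90 (95% interval 0.02 to 1.79, adjusted p = 0.78 by edgeR) and SERPINB5 of 0.30 (0.10 to 0.49, adjusted p = 0.55). In DMSO the values were 0.84 (-0.16 to 1.84, adjusted p = 0.36) and 0.17 (-0.03 to 0.36, adjusted p = 0.36). The 6p members had log2 fold changes from -0.06 to 0.05 in EPZ5676 and from -0.26 to -0.03 in DMSO.

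The replicate numbers were taken to pair the libraries, and with the number as a block 0 of 10 members were called in either treatment. The block raised the calls over all genes to 0.19% higher and 0.269% lower in EPZ5676 and to 3.45% higher and 5.02% lower in DMSO. SERPINB2 then had 0.83 (SE 0.24, adjusted p = 0.16 by edgeR) in EPZ5676 and 0.83 (SE 0.30, adjusted p = 0.091) in DMSO.

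The mean of the population difference over EPZ5676 and DMSO was tested after the 6 of 6 pairs had been seen, so it is no independent test of them. Without the block, 0 of 10 members were called by edgeR, with 2 at an unadjusted p below 0.05, beside 0.0612% of all genes called higher and 0.098% lower. DESeq2 called 1 member, SERPINB5 (0.24, adjusted p = 0.027), and limma-voom 0. SERPINB2 had 0.87 (SE 0.31, adjusted p = 0.15) and SERPINB5 0.23 (SE 0.06, adjusted p = 0.10). With the block, 5.81% of all genes were called higher and 6.4% lower, and 2 of 10 members were called. SERPINB2 was higher in ALDH1+ by 0.83 (SE 0.19, adjusted p = 0.015 by edgeR) and SERPINB5 by 0.23 (SE 0.06, adjusted p = 0.021). The call on SERPINB2 was lost without the libraries numbered 2 (0.66, SE 0.22, adjusted p = 0.20 by edgeR). The call on SERPINB5 was lost without those numbered 1 (0.22, SE 0.07, adjusted p = 0.095 by edgeR) and without those numbered 2 (0.20, SE 0.06, adjusted p = 0.15).

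**Figure D4:**
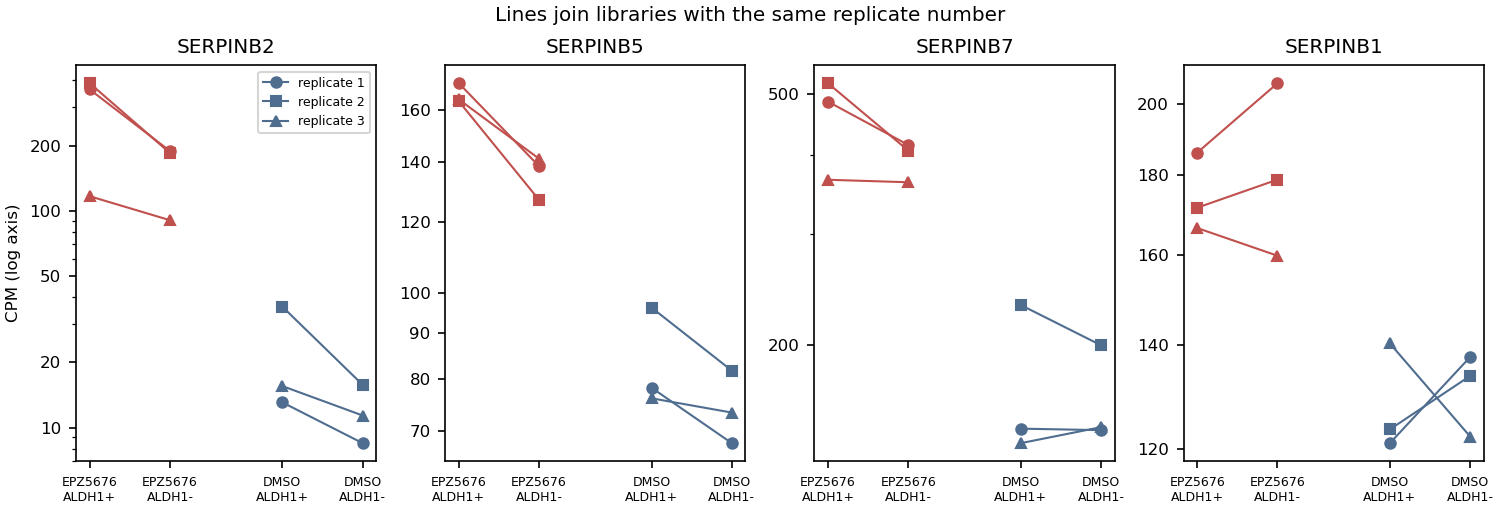
CPM of SERPINB2, SERPINB5, SERPINB7 and SERPINB1 on logarithmic axes, with lines joining ALDH1+ to the ALDH1- library of the same treatment and replicate number; red marks EPZ5676 and blue DMSO. SERPINB2 and SERPINB5 are higher in ALDH1+ in all 6 pairs, while SERPINB1 is higher in 2 of 6. The share of all genes higher in all 6 pairs was not counted.

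Whether the response to EPZ5676 differed between the populations was tested as an interaction. By edgeR, 0 of 10 members were called and 0 had an unadjusted p below 0.05, and DESeq2 and limma-voom called 0. Over all genes, 0% were called in either direction, and 3.66% had an unadjusted p below 0.05. For SERPINB2 the difference of the log2 fold changes, ALDH1+ minus ALDH1-, was 0.07 with a 95% interval of -1.27 to 1.40. For SERPINB7 it was 0.15 (-0.39 to 0.68) and for SERPINB5 0.13 (-0.14 to 0.41), and each of these intervals includes 0.

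The genes whose profiles over the 12 libraries lay closest to those of 3 members were found by the root mean square difference of centred log2 CPM over 12115 genes. Closest to SERPINB2 were GREM1 at 0.48, WNT7A at 0.54, TMPRSS11E at 0.54, SCG5 at 0.56 and MUC16 at 0.60, where SERPINB2 itself deviates from its mean by 1.98. Closest to SERPINB1 were AP4B1, PELO, RIOK3, BTBD10 and UBE2R2 at 0.084 to 0.086, beside its own 0.25. For SERPINB3, whose own value was 0.43, the closest genes, RAB17-DT, HSPA1A, CTU1, TIFA and 1 gene without a symbol, lay at 0.32 to 0.33, so no profile was close. These likenesses rest on the same treatment groups and are descriptions.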

How the data were processed

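Total RNA of sorted MDA-MB-468 cells was sequenced with a directional kit, per the labels' protocols. Trim Galore, STAR and the build hg19 are named in the submitters' processing notes. Not given in the sources used here are the annotation, the counting program and its strand setting. The authors deposited whole-number read counts per gene without normalization, and all values were computed from these.

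Identifiers were matched without their version to GENCODE 29; 51959 of 57783 genes had a symbol. Neighbours, transcript lengths and promoter windows come from GRCh38, another build than that of the counts, so coordinates stand only beside sequences. The members, lists and tests were chosen with earlier results of these data known.

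The main tool was edgeR 4.0.16 in R 4.3.3: filterByExpr by group left 16327 genes, TMM scaling gave factors from 0.975 to 1.021, and 1 quasi-likelihood model held all 12 libraries with a term per group. All 10 members reached the filter's level of 0.359 CPM in at least 4 DMSO libraries. Some other genes, such as HMSD and PTPRC, lay below that level in DMSO and passed through EPZ5676 libraries. Such genes could hardly be called lower in EPZ5676. Benjamini-Hochberg adjustment covered all tested genes. The biological coefficient of variation was 9.58%. P-values measure the spread between these libraries, since the labels do not say what separates the biological replicates. Of other lists, up to 4 called genes per comparison with the largest fold change and a mean log2 CPM no lower than 1 were named, besides all members, all tested neighbours and the genes nearest in profile. Some genes of the lists are counted but not reported here by name. The procedure was tested on simulated data.

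The replicate numbers recur in all groups. Over 12354 genes, libraries with the same number deviated together, with correlations of 0.17 to 0.65 in all 18 pairs, against different numbers at -0.66 to 0.22. Deviations were taken from the mean of each group. Where pairs with the same number lie above 0, this centring pushes the others below 0 on balance, so the contrast is partly fixed by it. The sign of the pairs with the same number is not. The numbers were therefore taken to pair the libraries, and a fit with the number as a block was run as an alternative. The others were RLE scaling, no scaling factor, no filter, at least 1 CPM in 3 libraries, DESeq2 1.42.0, limma-voom (limma 3.58.1), a fit of the compared groups alone, and fits without 1 library.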

Additional observations from a re-analysis of the deposited data

How the results depend on the processing

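For the populations and the interaction, leaving out any 1 library gave 0 called members. Without a filter, 2 members were called between the populations in EPZ5676, 1 in DMSO and 2 in the average (SERPINB2 in all 3, SERPINB5 in EPZ5676 and the average); the cause was not tested. In the average, DESeq2 called 1 member, SERPINB5, and the replicate block 2; the block changed no other count of called members. DESeq2 gave no adjusted p for 1 member in EPZ5676, 3 in DMSO and 3 in the average. Counts of members whose groups do not overlap do not depend on the test, so DESeq2, limma-voom and the block have no count there; leaving out a library can hardly add an overlap, so it does not test them; and the fit of the compared groups alone was not run for the interaction and the average, which use all 4 groups. Depth limits SERPINB13, SERPINB9, SERPINB3 and SERPINB4, with 2 to 595 counts per library. Over all genes, the counts between the populations depended most on the setting. In the average, edgeR called 10 higher and 16 lower, the fit without a scaling factor 8 and 26, DESeq2 463 and 258, the fit without a filter 749 and 489, and fits without 1 library 2 to 373 higher and 2 to 335 lower, with the most without EPZ5676 ALDH1- replicate 3. Without a filter 139 higher and 96 lower were called in EPZ5676, 538 and 410 in DMSO, and 25 and 12 for the interaction. Between the treatments, the 1476 lower calls in ALDH1- were 891 to 942 without DMSO ALDH1- replicate 2 or 3 or EPZ5676 ALDH1- replicate 1 or 2.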
